A study of Homo sapiens and Mus musculus with 54 samples.

Results

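C/EBPα binding sites that stood apart from both other lists of the same cell line were described in HepG2, a human liver cancer cell line. A C/EBPα peak was counted as alone when it shared no base with any AhR peak and none with any region of the H3K27ac list of the experiment without an AhR inhibitor. Of 62761 C/EBPα peaks, 24072 were alone (38.4%), and the members were chosen by these overlaps of peak positions. Of the others, 8101 peaks (12.9%) shared a base with AhR only, 7256 (11.6%) with H3K27ac only and 23332 (37.2%) with both. The series holds 54 ChIP-seq libraries, 30 of them from HepG2, taken on day 12 of culture without vitamin B2 (riboflavin) or of control culture. C/EBPα ChIP and AhR ChIP each had 2 B2-deficient and 2 control libraries, and H3K27ac ChIP had 5 B2-deficient and 5 control libraries. Which of these libraries entered a list is not given. A second H3K27ac experiment had 2 libraries of B2-deficient cells with an AhR inhibitor (AhRinh), 2 of B2-deficient cells with DMSO and 2 of control cells with DMSO. The ChIP of each factor had 2 control input libraries, and 2 B2-deficient input libraries are titled for AhR and C/EBPα together. HepG2 is 1 tumour line, so no spread between donors is covered.

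C/EBPα is a basic leucine zipper transcription factor that binds DNA as a dimer. In hepatocytes it is known for driving genes of gluconeogenesis, urea synthesis and plasma proteins, and in other lineages it acts in fat cells and granulocytes. Its sites are palindromes in which each arm reads TTGC or its complement, and partners of the ATF and CREB families can replace one arm by that of a cAMP response element. AhR is a ligand-activated factor of the basic helix-loop-helix PAS family, and H3K27ac is acetylation of histone H3 found at active regulatory DNA.

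The deposited lists gave positions in hg38 and no value for any library, so B2-deficient and control cells could not be compared and the depth is unknown. The number at the end of each peak name, taken to count the peaks that were combined in that entry, is called the merge number here. A peak with a merge number of 1 is called single, and one with 2 or more is called merged. The H3K27ac list was thin close to annotated starts of genes. It had 2000 regions with a centre 3000 to 3500 bp from a start and 646 regions at 2500 to 3000 bp, a ratio of 3.10, where the ratio was 0.935 for the C/EBPα list and 0.943 for the AhR list. Members numbered 333 at 3000 to 3500 bp and 436 at 2500 to 3000 bp, a ratio of 0.764. Only 4.47% of H3K27ac regions lay within 3 kb of a start, against 14.9% of C/EBPα peaks. A peak near a start can therefore be alone because this list holds few regions there, and the cause of the step was not tested. Members within 3 kb of a start (proximal) and members farther away (distal) are given apart for that reason. Of the hepatocyte markers, 10 of 11 had an H3K27ac region within 50 kb, with a median of 22 regions (0 to 56). Of the macrophage and lymphocyte markers 4 of 5 had a region, with a median of 3. Of the stellate cell and fibroblast markers 4 of 4 had a region, with a median of 4. Of the endothelial markers 3 of 4 had a region, with a median of 19. The share of markers with a region thus did not set hepatocytes apart.

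Sequence was at hand for the 300 bases round annotated starts, in 34961 RefSeq start windows of GRCh38.p14 that run from 250 bases before a start to 50 after it. In all, 1535 members (6.38%) touched 1998 of these windows, at 1794 genes. The sequences shown first are those the naming rule picked, with the highest merge number and the centre nearest to a start. They end at the base before the start, and they hold at most 30 bases where the gene has a start farther out. NDUFAF7 encodes an assembly factor of mitochondrial complex I, CALD1 the actin-binding protein caldesmon, and SMAD1 a signal transducer of bone morphogenetic proteins. None of these stretches holds one of the C/EBP words described next.
CALD1, chr7:134891428-134891457, plus strand: aggacaagcccagactttcgtcacagggac
NDUFAF7, chr2:37231598-37231657, plus strand: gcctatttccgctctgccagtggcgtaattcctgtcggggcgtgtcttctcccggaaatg
SMAD1, chr4:145482775-145482804, plus strand: ttcctttccctttaccggagtcgattgcct

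The word TGACGCAA joins one arm of a cAMP response element to one arm of a C/EBP site. It is shown in capitals, on either strand, in members with a merge number of 3, chosen after the values were seen as those with the word nearest to the peak centre. Each stretch reaches 40 bases to either side of the centre and lies before the outermost start of its gene. RAB7A encodes a GTPase of late endosomes, BUD31 a spliceosome protein, RPL13A a protein of the large ribosomal subunit and NECAP1 an adaptor of endocytosis. SCLT1 encodes a centriole protein and HYAL3 a member of the hyaluronidase family.
HYAL3, chr3:50299517-50299597, minus strand: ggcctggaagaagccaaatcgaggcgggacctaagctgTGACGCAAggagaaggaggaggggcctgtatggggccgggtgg
BUD31, chr7:99408853-99408933, plus strand: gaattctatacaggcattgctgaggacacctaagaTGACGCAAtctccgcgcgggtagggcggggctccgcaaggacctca
SCLT1, chr4:129093571-129093651, minus strand: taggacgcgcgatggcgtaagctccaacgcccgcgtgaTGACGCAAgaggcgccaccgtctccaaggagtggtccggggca
NECAP1, chr12:8082153-8082233, plus strand: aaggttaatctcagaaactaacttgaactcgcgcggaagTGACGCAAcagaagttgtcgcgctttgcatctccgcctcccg
RAB7A, chr3:128726034-128726114, plus strand: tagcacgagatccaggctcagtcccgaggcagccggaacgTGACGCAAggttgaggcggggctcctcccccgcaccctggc
RPL13A, chr19:49487508-49487588, plus strand: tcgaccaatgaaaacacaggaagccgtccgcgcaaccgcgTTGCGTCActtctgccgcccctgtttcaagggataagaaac

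The palindrome TTGCGCAA, made of a pair of C/EBP arms, is shown in capitals in members chosen in the same way. CDC7 encodes the kinase that starts DNA replication, SLC34A2 a sodium-phosphate cotransporter and SPOCK2 a proteoglycan.
SLC34A2, chr4:25655767-25655847, plus strand: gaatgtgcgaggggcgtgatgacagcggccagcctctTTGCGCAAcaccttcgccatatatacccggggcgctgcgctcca
CDC7, chr1:91500731-91500811, plus strand: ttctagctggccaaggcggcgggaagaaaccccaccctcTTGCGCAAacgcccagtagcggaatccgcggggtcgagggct
C6orf136, chr6:30646933-30647013, plus strand: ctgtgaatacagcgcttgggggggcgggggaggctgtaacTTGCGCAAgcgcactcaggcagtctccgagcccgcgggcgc
SPOCK2, chr10:72089038-72089118, minus strand: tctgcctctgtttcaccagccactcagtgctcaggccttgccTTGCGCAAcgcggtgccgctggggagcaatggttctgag
EBPL, chr13:49691661-49691737, minus strand: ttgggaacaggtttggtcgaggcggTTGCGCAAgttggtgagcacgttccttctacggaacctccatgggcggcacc

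CEBPG, which encodes the family member C/EBPγ, held a member at an inner start with TGATGCAA, the word known for dimers of a C/EBP protein with ATF4. The stretch of 30 bases has the word in capitals.
CEBPG, chr19:33374060-33374089, plus strand: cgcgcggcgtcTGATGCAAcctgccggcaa

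Words read from C/EBP sites had the highest ratios in these windows. All words of 8 letters found in at least 20 of the members' windows, 9072 in number with both strands read as 1, were ranked by their share in the members' windows over their share in all 34961 windows. TTGCGCAA ranked first, in 35 windows (1.75%) against 0.152% of all windows, an 11.6-fold ratio. TGACGCAA ranked second, in 97 windows (4.85%, 95% Wilson interval 4.00 to 5.89%) against 0.515% of all windows, a 9.43-fold ratio. The 1998 windows came from 1535 members and some overlap, so 1 copy can count more than once and the interval is too narrow. A word that is rare in all windows could enter the ranking only by being frequent in the members' windows, so the order describes these windows and supports nothing further. The ranking was made after these data were first seen, and a word in a window is a description, not a bound site.

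The words of other promoter factors had smaller ratios than these 2 words, though some were as far from all windows as the open C/EBP word TTGCNNAA (1.88-fold). The CCAAT box was in 43.7% of the members' windows and in 34.6% of all windows, and the ETS word CCGGAAG was in 19.4% and 10.3%, a 1.89-fold ratio. The GC box GGGCGG was in 62.5% of the members' windows and in 45.0% of all windows. The AP-1 word TGACTCA was in 2.55% of the members' windows, against 9.89% of the windows touched by C/EBPα peaks with AhR only and 4.92% of all windows. TATAAA was in 6.46% of the members' windows and in 11.5% of all windows. The core of the AhR site, GCGTG, was in 48.7% of the members' windows, 39.7% of the windows of peaks with AhR only and 36.6% of all windows. Base composition moved with these words: the median GC content was 61.7% in the members' windows, 57.2% with AhR only and 58.7% in all windows. Its part in the ratios was not tested.

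TGACGCAA was found in a larger share of the members' windows, 4.85%, than of those with AhR only, 1.41% (95% Wilson interval 0.769 to 2.58%), and the 2 sets also differed in GC content as given above. The word was in 2 of 71 windows with H3K27ac only (2.82%), too few to set apart from the members, and in 1 of 182 with both (0.549%). In the windows of members with a merge number of 3 it reached 7.69%, against 2.74% for single members. For TGATGCAA the members' share was 2.55% (1.95 to 3.34%) and that with AhR only 2.97% (1.95 to 4.49%), with Wilson intervals that overlap. It was 2.82% with H3K27ac only (2 of 71) and 3.85% with both (7 of 182), on few windows. The palindrome TTGCGCAA was in 1.75% of the members' windows and in 1.13% with AhR only, whose Wilson intervals of 1.26 to 2.43% and 0.574 to 2.21% overlap. The open form TTGCNNAA, which includes the palindrome, was in 19.7% of the members' windows, 21.2% of those with AhR only, 26.8% of those with H3K27ac only (71 windows), 31.3% of those with both (182 windows) and 10.4% of all windows. The members thus had the lowest share of the 4 classes for this commonest C/EBP word. Their Wilson interval of 18.0 to 21.5% overlaps the 18.3 to 24.3% with AhR only.

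Most copies of the C/EBP words lay near the peak centres. For 1203 members whose centre fell in a window, 75 copies of TGACGCAA were found, of which 62 (82.7%) had their midpoint within 25 bp of the centre. For TTGCGCAA this held for 25 of 27 copies (92.6%), with a median distance of 6 bp, and for TGATGCAA for 34 of 43 copies (79.1%). For the open form TTGCNNAA it held for 218 of 329 copies (66.3%). CCAAT boxes had 147 of 851 copies within 25 bp (17.3%) and GC boxes 267 of 1667 (16.0%). The median distance was 11 bp for TGACGCAA, against 73 bp for the CCAAT box and 79.5 bp for the GC box.

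**Figure D1:**
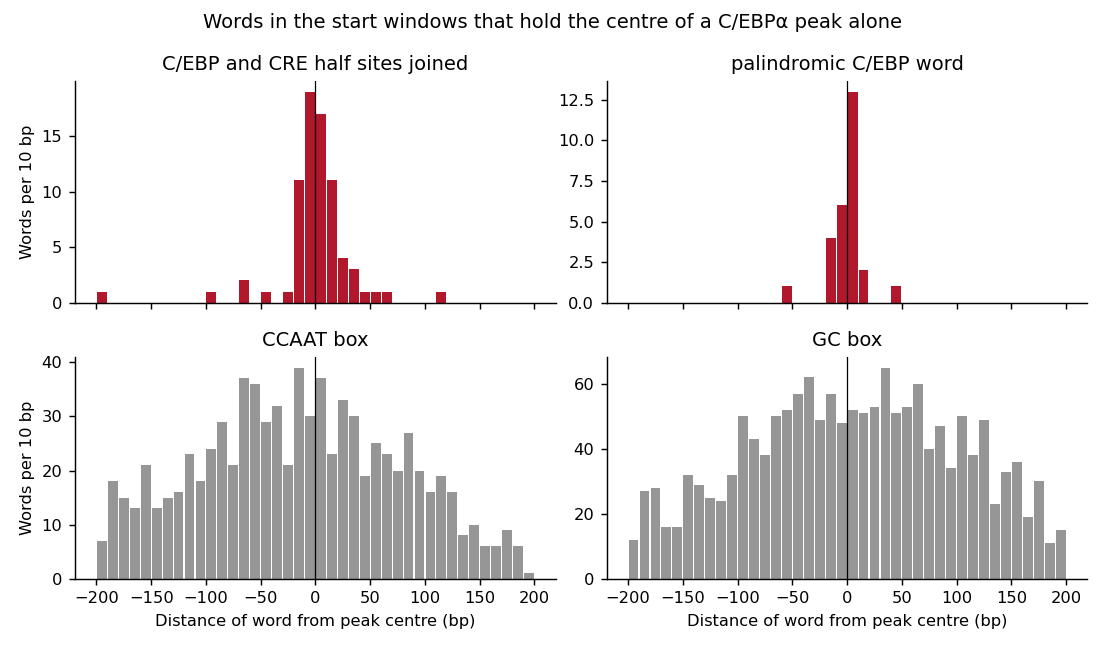
Copies of each word per 10 bp (vertical axes, counts) by distance from the peak centre in the direction of the gene (horizontal axes, bp), over the 1203 members with their centre in a start window. The hybrid word TGACGCAA (upper left) and the palindrome (upper right) pile up at 0, with 62 of 75 and 25 of 27 copies within 25 bp, and the CCAAT and GC boxes spread over the window.

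Of these 1203 members, 309 (25.7%) had TTGCNNAA, TGACGCAA or TGATGCAA within 25 bp of the centre. The share was 34.1% (178 of 522) with a merge number of 3, 23.9% (55 of 230) with 2 and 16.9% (76 of 451) with 1. In slices 75 to 125 bp away from the same centres it was 1.67% (24 of 1434). In all start windows, read at the members' median offset of -68.5 bp from the start, it was 2.33%. Single members thus stood above both of these levels, with a Wilson interval of 13.7 to 20.6%. C/EBPα peaks with AhR only had a word in 3.74% of 107 single peaks (1.46 to 9.22%) and in 30.2% of 275 peaks with 3 or more merged (25.1 to 35.8%). The intervals of single members and of single peaks with AhR only do not overlap, and at the highest merge number the intervals of the 2 classes overlap. Single peaks with H3K27ac only had a word in 4 of 20 (20.0%, 8.07 to 41.6%), an interval that holds the members' 16.9%, and single peaks with both in 0 of 24 (95% Wilson upper bound 13.8%). Over all merge numbers a word was held by 20.7% of 458 peaks with AhR only, 26.5% of 49 with H3K27ac only and 28.8% of 139 with both. With 3 or more merged it was 37.5% of 16 peaks with H3K27ac only and 36.0% of 89 with both. All these intervals cover counting error over peaks only.

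**Figure D2:**
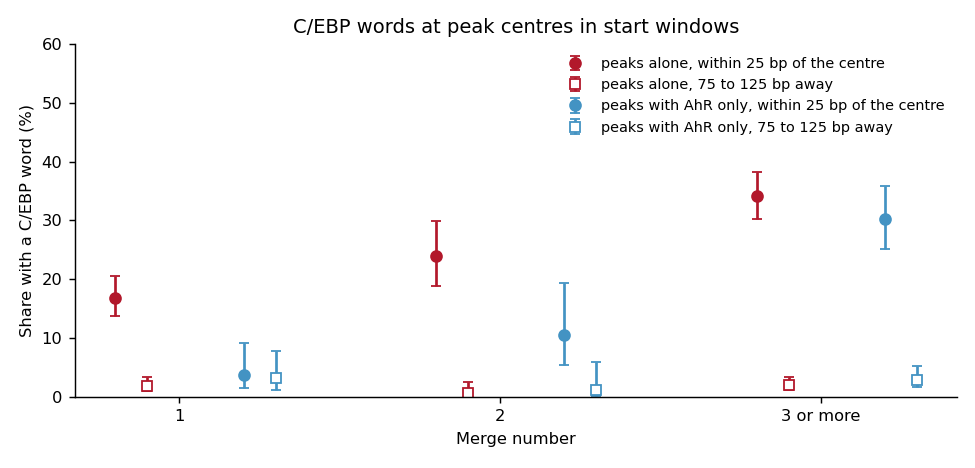
Share of peaks with a C/EBP word (vertical axis, %) by merge number (horizontal axis) for C/EBPα peaks alone (red) and with AhR only (blue), among peaks centred in a start window. Filled circles are slices within 25 bp of the centre, open squares are slices 75 to 125 bp away, and bars are 95% Wilson intervals; among peaks alone the share is 16.9% at merge number 1 and 34.1% at 3.

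The genes with such a word at a member's centre had varied roles. Among 1018 members centred in a window of a protein-coding gene, 56 had TGACGCAA and 21 had TTGCGCAA within 25 bp. They included the ribosomal protein genes RPL13A, RPL34 and RPL9, the autophagy gene ATG7, the apoptosis gene CASP9, the mRNA-binding gene HNRNPH1 and the coenzyme Q genes COQ5 and COQ7. TIPARP, an ADP-ribosyltransferase gene induced through AhR, and LEP, which encodes the fat-cell hormone leptin, were also among them, each at a single member. These genes were picked after their values were seen.

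Members had lower merge numbers than every other class. Of the 24072 members, 15087 were single (62.7%), 5352 had a merge number of 2 (22.2%) and 3633 had 3 (15.1%). None had more than 3. Merged peaks made up 37.3% of the members (36.7 to 37.9%), against 75.4% with AhR only, 55.2% with H3K27ac only and 78.4% with both. Over the 23 chromosomes (1 to 22 and X) the members' merged share was lower by a mean of 38.1 percentage points than with AhR only (difference -38.1 ± 2.35, SD), and lower on 23 of 23. The difference was -17.2 ± 4.22 points from H3K27ac only and -40.9 ± 3.48 points from both, again with 23 of 23 chromosomes lower. Read the other way, 59.5% of all single C/EBPα peaks were alone, 41.5% of those with a merge number of 2 and 14.8% of those with 3 or more.

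The same held away from starts. Among distal peaks, 33.1% of the members were merged, against 73.7% with AhR only, 55.3% with H3K27ac only and 78.3% with both, and on each of the 23 chromosomes the members were the lower. Among proximal peaks, the members' merged share was 52.3%, against 78.5% with AhR only and 80.4% with both, and the 52.1% with H3K27ac only (313 peaks) lay within the members' interval of 51.0 to 53.7%. Proximal members were merged more often than distal ones, 52.3% against 33.1%, and a merge number of 3 was held by 27.6% and 11.5%. The members were slightly narrower, with a median width of 225 bp against 233, 232 and 235 bp with AhR only, H3K27ac only and both. The rule bears on this, since a wider peak can share a base with another list more easily. How many reads lay under a peak is not given in the lists, so a low merge number and a weak peak could not be told apart.

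**Figure D3:**
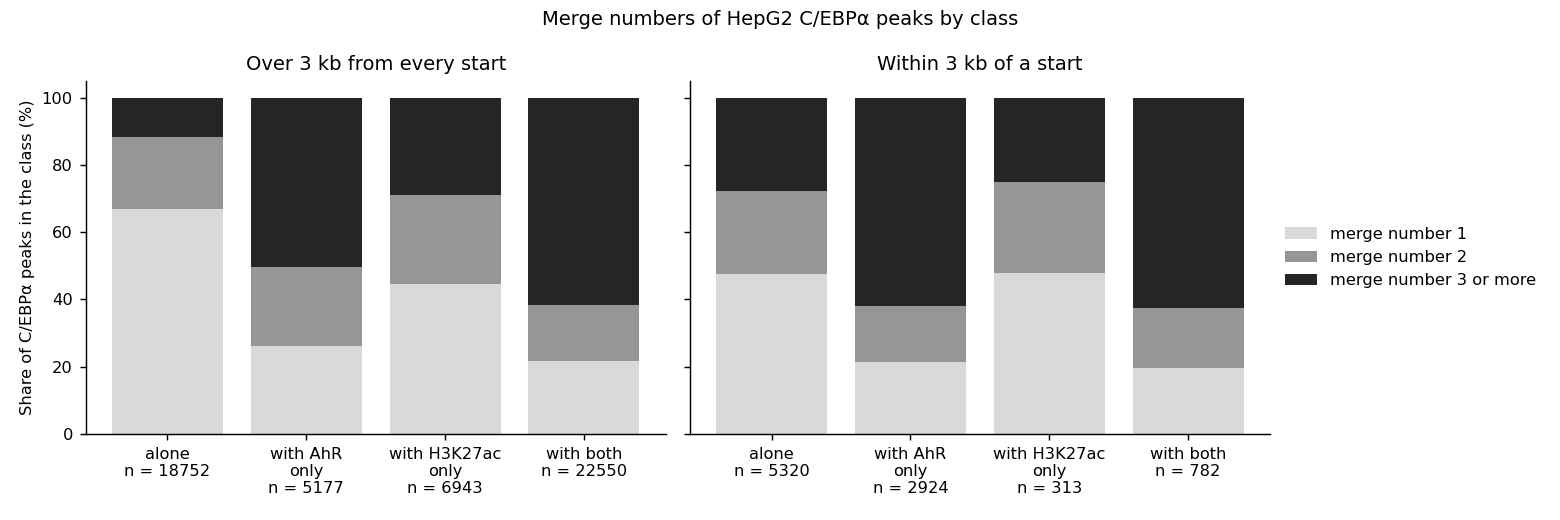
Share of peaks (vertical axis, %) with a merge number of 1, 2 and 3 or more in the 4 classes of C/EBPα peaks, more than 3 kb from every start (left) and within 3 kb of a start (right). Peaks alone are the leftmost bar in each panel: 66.9% of distal and 47.7% of proximal ones are single.

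Members were frequent at gene starts. Of all members, 3066 (12.7%, 12.3 to 13.2%) had their centre within 1 kb of a start, against 4.60% of the other C/EBPα peaks. By class, the share was 15.5% with AhR only, 2.34% with H3K27ac only and 1.53% with both, so that the classes without H3K27ac were the ones near starts. Within 3 kb lay 5320 members (22.1%), and 18752 (77.9%) were distal. The distal count holds all 940 members on chromosome 8, where 0% of the 2612 C/EBPα peaks of any class counted as proximal. Starts of that chromosome thus appear to be missing from the start windows, and its peaks are called distal whatever their true distance. Of the 9339 C/EBPα peaks within 3 kb of a start, 57.0% were alone and 31.3% had AhR only, where of the distal peaks 35.1% were alone and 42.2% had both. The H3K27ac list was thin near starts, as given above, and its part in these shares was not tested.

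**Figure D4:**
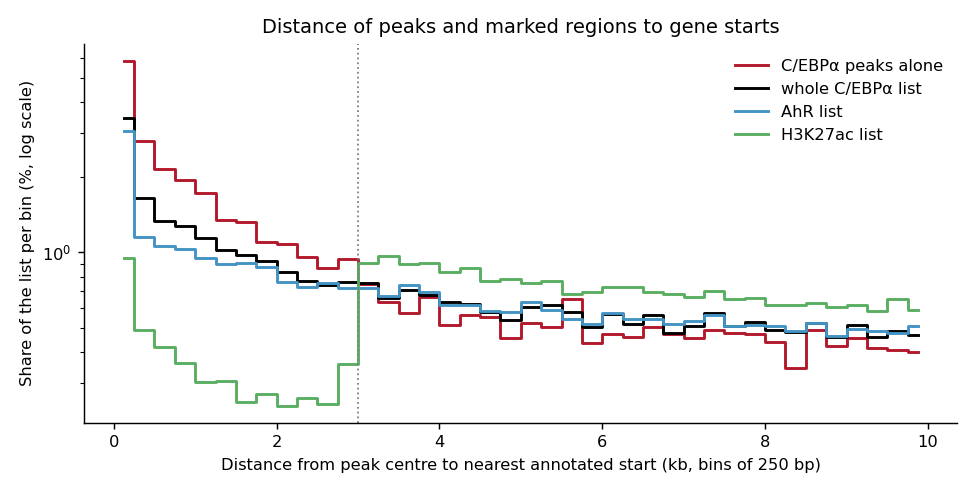
Share of each list per bin of 250 bp (vertical axis, %, log scale) by distance of the centre from the nearest annotated start (horizontal axis, kb), for C/EBPα peaks alone (red), the whole C/EBPα list (black), AhR (blue) and H3K27ac (green). The dotted line marks 3 kb, where the H3K27ac list steps up 3.10-fold between neighbouring bins of 500 bp and the other lists do not. For peaks alone the ratio of these bins is 0.764.

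Position in genes differed little once starts were set aside. Among distal members, 54.2% lay inside a protein-coding gene, against 56.1% with AhR only, 48.0% with H3K27ac only and 54.9% with both. The difference from AhR only was -1.56 ± 5.46 percentage points over 23 chromosomes (SD), and from both -0.889 ± 3.51 points, each smaller than the spread. From H3K27ac only it was 6.77 ± 4.44 points, with the members higher on 22 of 23 chromosomes. More than 50 kb from every protein-coding gene lay 18.1% of the distal members, against 16.3% with AhR only, 15.5% with H3K27ac only and 17.4% with both.

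An entry of the AhR or H3K27ac list lay within 10000 bp of 66.9% of the members. The median distance was 6898 bp to the nearest H3K27ac region and 9294 bp to the nearest AhR peak, and 4715 members (19.6%) had one or the other within 1000 bp. Just inside the rule, 123 members lay within 10 bp of an entry, and just outside it 96 C/EBPα peaks shared 10 bases or fewer with one. Merged peaks made up 39.8% of those 123 members and 51.0% of those 96 peaks. Within 50 bp or 50 bases the shares were 43.5% of 513 members and 48.7% of 505 peaks left out. Of all members, 231 (0.960%) shared a base with a region of the inhibitor experiment's H3K27ac list, 224 of them distal, and 123 of the 231 were merged (53.2%).

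Members were spaced more widely than other C/EBPα peaks. The next C/EBPα peak lay at a median of 7818 bp from a member, against 5488 bp with AhR only, 4870 bp with H3K27ac only and 4552 bp with both. It lay within 10 kb for 55.8% of the members, against 63.7%, 67.0% and 68.5% in those classes, and the members had the lower share of the pair on 23 of 23 chromosomes in each comparison. The nearest neighbour was itself alone for 43.0% of the members, against 30.6% with H3K27ac only and 31.3% with both, higher on 21 and 22 of 23 chromosomes. With AhR only the share was 40.9%, a difference of 1.13 ± 4.46 points over chromosomes, within the spread.

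Some stretches held members and no other C/EBPα peak. The longest run had 14 consecutive members over 487255 bp at chr2:168992747-169480001, along ABCB11, the bile salt export pump of hepatocytes, DHRS9, LRP2 and BBS5. A run of 13 covered a histone gene cluster at chr6:26123022-26255086, with 11 of the 13 within 3 kb of a start. A run of 12 lay at chr19:41948624-42345479, and a run of 10 at chr19:36489589-37779703 passed along zinc finger genes from ZNF566 to ZNF573, all 10 near starts. Runs of at least 5 numbered 531 and held 3118 members (13.0%). With 38.4% of all C/EBPα peaks alone, some runs arise from that share by itself. Whether the runs exceed it in number or length was not tested. Among 1340 windows of 1 Mb with at least 20 C/EBPα peaks, the share alone ran from 4.55% to 77.8% with a median of 37.0%.

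Chromosome 19 stood highest. There 47.9% of the C/EBPα peaks were alone, against 34.0 to 40.3% on the other 22 chromosomes. Among distal peaks the share was 38.8% on chromosome 19, against 31.6 to 37.0% elsewhere. Zinc finger genes named ZNF, many of which lie on chromosome 19, had 47.0% of their C/EBPα peaks alone (357 of 760), and 40.8% of the distal ones. Histone genes had 67.6% alone (46 of 68) and ribosomal protein genes 49.1% (78 of 159), against 38.6% over all protein-coding genes. Among their distal peaks the shares were 42.9% (12 of 28) and 38.5%, against 34.7% over all genes. Olfactory receptor genes had 43.6% alone (44 of 101), and 42.9% of the distal ones. These families were chosen after the data were seen.

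Within 50 kb of a protein-coding gene lay 20454 members, at 9825 genes, of 13087 genes with any C/EBPα peak. The genes with the most members were long ones with many C/EBPα peaks of every class. WWOX, a tumour suppressor oxidoreductase gene at chr16:78099654-79212667, had 26 members of 71 peaks, and FOXP1, a forkhead factor gene at chr3:70954708-71583978, had 23 of 60. LPP, a focal adhesion gene, had 21 of 58, and PLCB1, which encodes a phospholipase C, had 20 of 53. FNDC3B had 17 of 44 and PTPRK, a receptor tyrosine phosphatase gene, 17 of 43. SOX5 had 16 of 36, RERE 15 of 37, ZFHX3 15 of 40 and DENND1A 14 of 33. In these 10 genes the share alone ran from 36.2% to 44.4%, against 38.6% over all genes. The tenth place was a tie at 14 members, settled by symbol, and with the 4 other tied genes the range was 31.8% to 60.9%.

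At 3052 of the 13087 genes with a C/EBPα peak every C/EBPα peak was alone, and 2133 of these had 1 peak. With 5 or more peaks there were 23 such genes, of 3672 with that many. Of all C/EBPα peaks 38.4% were alone, and whether these counts exceed what that share gives was not tested. BPTF, a subunit gene of the NURF chromatin remodeller at chr17:67825503-67984378, had 6 peaks, of which 4 were merged. BBS5, a gene of the ciliary BBSome, CMC1, LOC124905450 and the stress granule gene TIA1 also had 6 each. Among those with 5 were AHCYL2, CAMTA2, DPY30, a subunit gene of histone methyltransferase complexes, and ECH1, a fatty acid oxidation gene. In contrast 192 genes with 5 or more C/EBPα peaks had no member, led by FRMD8 with 15 peaks.

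Within the CEBP family, 8 of 29 C/EBPα peaks were alone (27.6%, 14.7 to 45.7%), 5 at CEBPG and 3 at CEBPB, and the interval held the 38.6% of all protein-coding genes. Of its distal peaks 2 of 19 were alone (10.5%), against 34.7% over all genes. CEBPG had 8 peaks in all. The member with the highest merge number, 3, spanned its outer start at chr19:33373643-33373873, and one with 2 lay at the inner start, chr19:33373975-33374193, whose TGATGCAA word is shown above. The nearest H3K27ac regions lay 7635 and 7967 bp away and the nearest AhR peaks 2668 and 2348 bp away. CEBPB, which encodes C/EBPβ, had 12 peaks, and its 3 members lay 17246 to 24865 bp outside the gene, of which 2 were within 1 kb of another annotated start. CEBPA and CEBPE had no member among their peaks, and CEBPD and DDIT3 had no C/EBPα peak assigned.

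Among AhR targets 18 of 49 peaks were alone (36.7%, 24.7 to 50.7%), at 8 of 11 genes, near the 38.6% over all protein-coding genes. TIPARP had 4 members of 8 peaks, of which the one at chr3:156676500-156676716 lay 56 bp from a start and 9038 bp from the nearest AhR peak. Another, at chr3:156628380-156628612, lay 11 bp from an AhR peak and 38 bp from an H3K27ac region. CYP1A1, a textbook AhR-induced cytochrome P450 gene, had 2 members of 5 peaks, and the nearer to its start, chr15:74723328-74723566, lay 115 bp from an AhR peak. NFE2L2, which encodes the antioxidant factor NRF2, had 5 members of 11, all single, and SLC7A5 and UGT1A6 had 2 members each. AHR, CYP1B1 and NQO1 had 1 each.

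The hepatocyte identity and C/EBP-regulated liver lists, which share genes, had a low share of peaks alone, and the neuronal list a high one. The rule defines alone by AhR and H3K27ac entries, so the share also depends on how dense those entries are near the genes. That part was not tested. Of 223 C/EBPα peaks at the hepatocyte identity genes, 55 were alone (24.7%, 19.5 to 30.7%), and at the C/EBP-regulated liver genes it was 24 of 112 (21.4%, 14.8 to 29.9%), against 38.6% over all protein-coding genes. G6PC1, the glucose-6-phosphatase gene, had 6 members of 14 peaks, and SERPINA1, the antitrypsin gene, 4 of 16. At the neuronal synapse and adhesion genes 79 of 153 peaks were alone (51.6%, 43.8 to 59.4%). RBFOX1, a splicing regulator gene, had 9 members of 12 peaks, CNTNAP2 7 of 14, CTNNA2 7 of 12 and DLGAP1 9 of 25. Among distal peaks the shares were 22.6% for hepatocyte identity, 18.6% for C/EBP-regulated liver genes and 52.1% for the neuronal list, against 34.7% over all genes.

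The merge number differed between these lists. At endothelial genes, with 18.6% of their 43 peaks alone, 51.2% were merged. At muscle genes, with 43.8% of only 16 peaks alone, 68.8% were merged. Other lists went the opposite way. The CEBP family had 27.6% of 29 peaks alone and 75.9% merged, and acute phase proteins 30.1% of 73 alone and 72.6% merged. Macrophage and lymphocyte genes had 50.0% of 12 peaks alone and 33.3% merged. How the merge number relates to the share alone over lists was not tested. Merged peaks made up 65.5% of all C/EBPα peaks at hepatocyte identity genes and 51.0% at the neuronal genes, against 60.1% over all genes. Among merged peaks only, 11.6% were alone at hepatocyte identity genes (17 of 146), 7.04% at C/EBP-regulated liver genes (5 of 71) and 29.5% at the neuronal genes (23 of 78), against 25.1% over all genes. Among single peaks it was 49.4%, 46.3% and 74.7%, against 59.0%. Of merged peaks, 4.55% were alone at endothelial genes (1 of 22) and 6.67% at epidermal genes (1 of 15), so a low share was not particular to the liver lists. The peaks of a list share genes and chromosomes, so these shares describe the lists and were not tested.

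The remaining lists had intervals that held the share of all genes, except the endothelial one at 18.6% (8 of 43, 9.74 to 32.6%). Acute phase proteins had 30.1% alone, with 3 members of 9 peaks at FGG and 3 of 3 at SAA4. Lipogenesis genes had 33.9%, with 7 of 20 at LPIN1 and 5 of 9 at SCD, the stearoyl-CoA desaturase gene. Drug and steroid P450s had 40.0%, with 5 of 11 at CYP3A43. Riboflavin transport and flavin synthesis genes had 33.3% (6 of 18), with 4 of 15 at ENPP1 and the only peak of SLC52A3, a riboflavin transporter gene. Urea cycle and amino acid catabolism genes had 33.8%, neutrophil and monocyte genes 32.6%, adipocyte genes 40.5%, with 4 of 10 at PPARG, and epidermal genes 26.9%. Clock genes had 38.5%, with 6 of 8 at NFIL3, whose product also binds DNA through a basic leucine zipper, and 7 of 28 at RORA. Muscle genes had 43.8%, stellate cell and fibroblast genes 40.0%, housekeeping genes 41.0%, with 5 of 7 at EEF1A1, and macrophage and lymphocyte genes 50.0% (6 of 12).

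**Figure D5:**
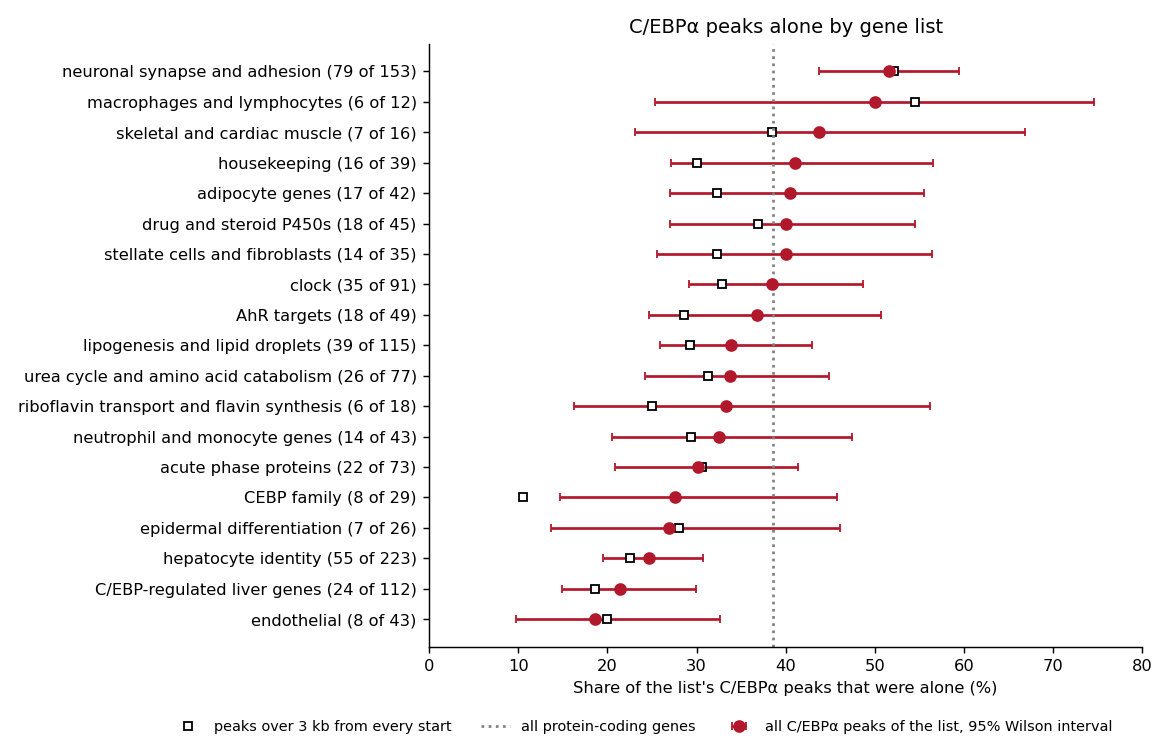
Share of each gene list's C/EBPα peaks that were alone (horizontal axis, %), with 95% Wilson intervals (red) and the share among distal peaks (open squares); the dotted line is the 38.6% of all protein-coding genes. The neuronal list lies highest at 51.6%, and hepatocyte identity (24.7%), C/EBP-regulated liver genes (21.4%) and endothelial genes (18.6%) lie lowest.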

How the data were processed

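ChIP-seq libraries of HepG2 were placed in groups by their titles. The authors deposited peak lists of 5 columns (name, chromosome, start, end, strand sign), whose values are positions in bp. Bowtie2 and HOMER are named without versions, and the builds hg38 and mm10, per the submitters' processing notes. The sources used here do not give caller settings, filters or which libraries or conditions entered a list. Per the labels' protocols, cells for AhR and C/EBPα ChIP were fixed with disuccinimidyl glutarate before formaldehyde, and cells for H3K27ac ChIP with formaldehyde alone. The mouse lists were not used here.

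Members were C/EBPα peaks that share at least 1 base with no AhR and no H3K27ac entry. The members and the gene lists were chosen with earlier results of these data known. The planned test of B2-deficient against control cells needs values per library and was not run, and no p-value is given. Shares carry 95% Wilson intervals, which cover counting error only and are too narrow for neighbouring peaks and for overlapping start windows. Differences carry the mean and SD over 23 chromosomes. The depth is unknown, so no precision set by reads can be given. Peaks were assigned to the nearest of 19970 protein-coding gene bodies of RefSeq (GRCh38.p14) within 50 kb. Starts came from 34961 start windows, which cover 15811 of these genes, so that some distal peaks lie near a start without a window. On chromosome 8 no C/EBPα peak counted as proximal, so its starts appear to be missing from the windows. Of overlapping windows on opposite strands, 2763 of 2763 pairs matched as complements. Words were searched on both strands. Named genes were the 10 with the most members, 10 of those with at least 5 peaks that were all members, the CEBP family, AhR targets with a member and up to 4 genes with the most members of each other list; others are marked as chosen after their values were seen. Some genes that this rule picks are not reported here. The interval and word routines were tested on simulated data. Python 3.11.15, NumPy 2.4.6, pandas 2.3.3 and Matplotlib 3.10.9 were used.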

Additional observations from a re-analysis of the deposited data

How the results depend on the processing

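Under all 6 other rules for an overlap or for the lists used, the number of peaks alone stayed between 19357 and 32040 (main 24072), and their merged share stayed below that of the other C/EBPα peaks, by differences of -36.2 to -29.6 percentage points (main -36.1). The merged share itself was 38.0% with an overlap of 50% of the shorter interval, 45.1% against merged AhR and H3K27ac entries only and 32.8% for members over 3 kb from every gene end (main 37.3%), and 37.2 to 37.5% without each chromosome in turn. The split at 3 kb from a start was chosen after seeing the data: it gave 5320 proximal members with 52.3% merged, and 33.1% merged among the distal ones. The differences of the members from all other C/EBPα peaks pooled, near starts, inside genes and in spacing, kept their direction under each alternative run. The one inside genes was 2.72 points in the main run and 0.531 points among distal peaks. Its sign differed by class. Among distal peaks, 54.2% of the members lay inside genes, against 56.1% with AhR only, 54.9% with both and 48.0% with H3K27ac only. Of the gene lists, 3 changed sides of the share over all genes among distal peaks, adipocyte genes and stellate cell and fibroblast genes (each -2.47 points) and housekeeping genes (-4.73 points). Assigning within 10 kb changed no list's side. No paired analysis was possible because the lists hold no value per library, and alternatives for such values were not run. Without depths, a peak absent from a list is not shown to be absent from the cells, and words could be read in start windows only.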
